A study of Mus musculus with 4 samples.

Results

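The 10 genes Lyz1, Lyz2, Lgals3, Laptm5, Cd68, Csf1r, Ms4a6d, Fcer1g, Tyrobp and Cd52 are markers of macrophages and related myeloid cells, out of 12393 genes read by probe sets of exactly 1 gene. All 18 probe sets annotated to exactly 1 of these genes were taken. Several of the genes were chosen by their high readings in 1 heterozygous array, Het2, so every difference that uses that array is given as a description with no test. Differences among the other 3 arrays did not choose the genes.

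Transcript levels in the mitral valve of mice were read on 4 oligonucleotide arrays, from total RNA. The homozygous (Hom) group held 1 array, labelled Fbn1 C1039G/C1039G, the heterozygous (Het) group 2 arrays, labelled Fbn1 C1039/+ and called Het2 and Het1 by their replicate numbers, and the wild-type (WT) group 1 array, labelled Fbn1 +/+. The Het labels leave out the substituted residue. Age, sex, strain, and whether an array came from 1 animal or from a pool are not in the labels, so any p-value reflects the spread of these arrays alone. With so few arrays, precision is limited throughout. Fibrillin-1 itself was not analysed here.

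Macrophages are phagocytes that live in the valve leaflets from development onwards and are joined by cells derived from blood monocytes. Their survival depends on the receptor Csf1r, which binds the cytokines Csf1 and Il34. Many of their surface receptors have no signalling tail of their own and pair instead with the small adaptors Fcer1g and Tyrobp, whose phosphorylated tails recruit the kinase Syk. Lysozyme, galectin-3, Cd68 and Laptm5 belong to the secretory, phagocytic and lysosomal equipment of the same cells.

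Levels are intensities after each array was centred on the median common to the 4 arrays. A floor of 19.0 was set before log2 differences were taken. Interstitial genes of the valve read high, such as Dcn, which encodes the matrix proteoglycan decorin, at 10878 in Hom, 8043 in Het2, 14146 in Het1 and 13527 in WT. Heart muscle genes read high as well, with Myl2, a ventricular myosin light chain, at 8130 in Hom, 2981 in Het2, 11527 in Het1 and 8505 in WT. Het2 stood apart from the rest. Its log2 values correlated with those of the other arrays at 0.91 to 0.93 over all probe sets, against 0.96 to 0.97 among the others. The ratio of the 3′ to the 5′ probe set of Actb, a measure of RNA integrity, was 2.16 in Hom, 3.04 in Het2, 2.19 in Het1 and 2.25 in WT. That ratio for Gapdh was 3.84 in Hom, 4.65 in Het2, 3.19 in Het1 and 4.18 in WT. Centring raised the log2 values of Het2 by 0.19, the largest shift of the 4 arrays. In bulk tissue, fewer cells of a type and less RNA per cell cannot be told apart.

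Promoter sequences in RefSeq (GRCm38.p6) were matched for 6 of the 10 genes, namely Fcer1g, Laptm5, Lyz2, Lyz1, Cd68 and Lgals3. They are shown because most of these genes read high on the same array. The 250 bases before each start were searched on both strands for AGGAAG, the core bound by the myeloid factor PU.1 and other ETS factors, and for TGANTCA, the AP-1 motif. AGGAAG occurred in 4 of the 6 promoters and in 29.48% of all 32851 mouse promoters of that length. TGANTCA occurred in 1 of the 6, that of Cd68 at 149 to 143 and 24 to 18 bases upstream, and in 6.749% of all promoters. A match is only these letters and does not show binding. In the sequences below, given 5′ to 3′ on the strand of the gene, capitals mark AGGAAG or its reverse complement CTTCCT. Fcer1g lies at chr1:171234350-171234469 on the minus strand, with the motif 44 to 39 bases upstream. Laptm5 lies at chr4:130913066-130913315 on the plus strand, with the motif at 233 to 228 and at 39 to 34 bases upstream. The annotated span of Laptm5 begins earlier, at 130912890, so this stretch lies inside the gene, before the promoter table's start. Its motifs are counted in the 4 of 6.
Fcer1g: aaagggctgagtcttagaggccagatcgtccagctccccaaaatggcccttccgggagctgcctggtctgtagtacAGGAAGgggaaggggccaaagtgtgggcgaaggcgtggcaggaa
Laptm5: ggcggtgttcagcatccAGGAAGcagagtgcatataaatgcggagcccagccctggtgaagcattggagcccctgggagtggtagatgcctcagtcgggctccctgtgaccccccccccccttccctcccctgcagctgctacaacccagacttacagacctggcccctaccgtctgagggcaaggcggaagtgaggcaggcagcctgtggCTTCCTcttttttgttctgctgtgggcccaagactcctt

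Lyz1 and Lyz2 are neighbours on chromosome 10 with no annotated gene between them, and their products are the intestinal and the macrophage lysozyme. Both promoters are shown because some Lyz1 probe sets may bind transcripts of more than 1 gene. The last 120 bases before the start, at chr10:117292869-117292988 for Lyz1 and chr10:117282273-117282392 for Lyz2, both on the minus strand, were identical at 111 positions (92.5%). Over 250 bases, aligned without gaps, 152 positions (60.8%) were identical. Both hold the motif 99 to 94 bases upstream, and Lyz2 has another 137 to 132 bases upstream, outside the stretch shown.
Lyz1: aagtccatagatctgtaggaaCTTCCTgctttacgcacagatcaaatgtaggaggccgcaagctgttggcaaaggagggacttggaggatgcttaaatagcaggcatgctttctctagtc
Lyz2: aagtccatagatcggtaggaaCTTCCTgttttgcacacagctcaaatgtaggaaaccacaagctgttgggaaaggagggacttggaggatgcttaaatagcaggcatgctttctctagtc

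The lysozymes, which break down bacterial cell walls, were nearly level on 3 arrays and high on 1 by 3 of their 4 probe sets. Lyz2 (1423547_at) read 319.6 in Hom, 981.1 in Het2, 308.5 in Het1 and 304.8 in WT. Lyz1 was read by 3 probe sets. The brightest of them, 1436996_x_at, gave 472.6 in Hom, 2779 in Het2, 437.9 in Het1 and 446.3 in WT. A further one, 1439426_x_at, gave 119.3 in Hom, 771.7 in Het2, 126.6 in Het1 and 106.6 in WT. Het2 was at least 3.07-fold above every other array on all 3 of these probe sets, and Hom, Het1 and WT stayed within 1.19-fold of each other. The last Lyz1 probe set, 1450822_at, went the other way, with 42.6 in Hom, 21.6 in Het2, 50.7 in Het1 and 36.0 in WT. It was dim throughout and lowest in Het2. Names that end in _x_at mark probe sets with probes that can bind more than 1 transcript, so both bright Lyz1 readings are uncertain as to which lysozyme transcript they measured.

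Lgals3, the galactose-binding lectin galectin-3 of activated macrophages and some stromal cells, had the largest difference between the Het arrays among the 18 probe sets. It read 91.5 in Hom, 587.8 in Het2, 78.4 in Het1 and 82.2 in WT. This was 7.50-fold higher in Het2 than in Het1, rank 5 of the 11315 probe sets compared. Cd68, a glycoprotein of lysosomal membranes, moved far less, at 108.5 in Hom, 193.1 in Het2, 95.8 in Het1 and 96.7 in WT. Its reading in Het2 was 2.01-fold that in Het1 and 1.78-fold that in Hom, the next highest array.

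Laptm5, a lysosomal transmembrane protein of blood cells, gave opposite pictures on its 3 probe sets. On 1436905_x_at it read 125.4 in Hom, 765.6 in Het2, 148.1 in Het1 and 172.7 in WT. On 1417721_s_at it read 109.3 in Hom, 81.0 in Het2, 81.5 in Het1 and 77.2 in WT. On 1426025_s_at it read 241.5 in Hom, 165.4 in Het2, 195.8 in Het1 and 173.6 in WT. Only the first placed Het2 highest, 4.43-fold or more above each other array. Both others placed Hom highest, 1.42-fold and 1.39-fold above the lowest of Hom, Het1 and WT. The high Laptm5 reading therefore rests on 1 of 3 probe sets.

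Csf1r, the receptor for Csf1, was bright throughout, with 1419872_at at the 96th to 98th percentile of all probe sets on every array. It read 1201 in Hom, 2164 in Het2, 978 in Het1 and 1243 in WT. On 1419873_s_at the readings were 197.7 in Hom, 397.6 in Het2, 191.4 in Het1 and 250.5 in WT. On 1423593_a_at they were 157.9 in Hom, 170.9 in Het2, 141.3 in Het1 and 175.4 in WT. The first and the second placed Het2 highest, by 1.74-fold and 1.59-fold over WT, the next highest array, while on the third WT was highest and the whole range was small. Het1 was lowest on all 3.

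Fcer1g, the common gamma chain of Fc receptors, differed from the rest in its WT reading. It gave 81.2 in Hom, 323.6 in Het2, 107.4 in Het1 and 33.5 in WT. WT was lowest, and each array with a mutant Fbn1 allele read at least 2.42-fold above it. That WT reading was dim, at the 35th percentile of its array, and comes from 1 probe set. Tyrobp, the DAP12 adaptor that pairs with Trem2 and other receptors, read 253.9 in Hom, 666.8 in Het2, 216.9 in Het1 and 227.4 in WT, with WT between Hom and Het1. The adaptors thus differed in their WT readings.

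Ms4a6d, a membrane protein of the Ms4a family found on macrophages, was dim. On 1419598_at it read 46.9 in Hom, 139.9 in Het2, 33.9 in Het1 and 40.7 in WT. On 1419599_s_at it read 40.3 in Hom, 189.7 in Het2, 34.0 in Het1 and 52.1 in WT. Het2 was highest on both, while 1449539_at lay below the floor on all 4 arrays. Cd52, a small glycoprotein anchored to the surface of lymphocytes, monocytes and macrophages, read 134.5 in Hom, 431.2 in Het2, 83.5 in Het1 and 89.7 in WT. Hom was the next highest array for Cd52, with a log2 difference of 0.58 from WT.

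**Figure D1:**
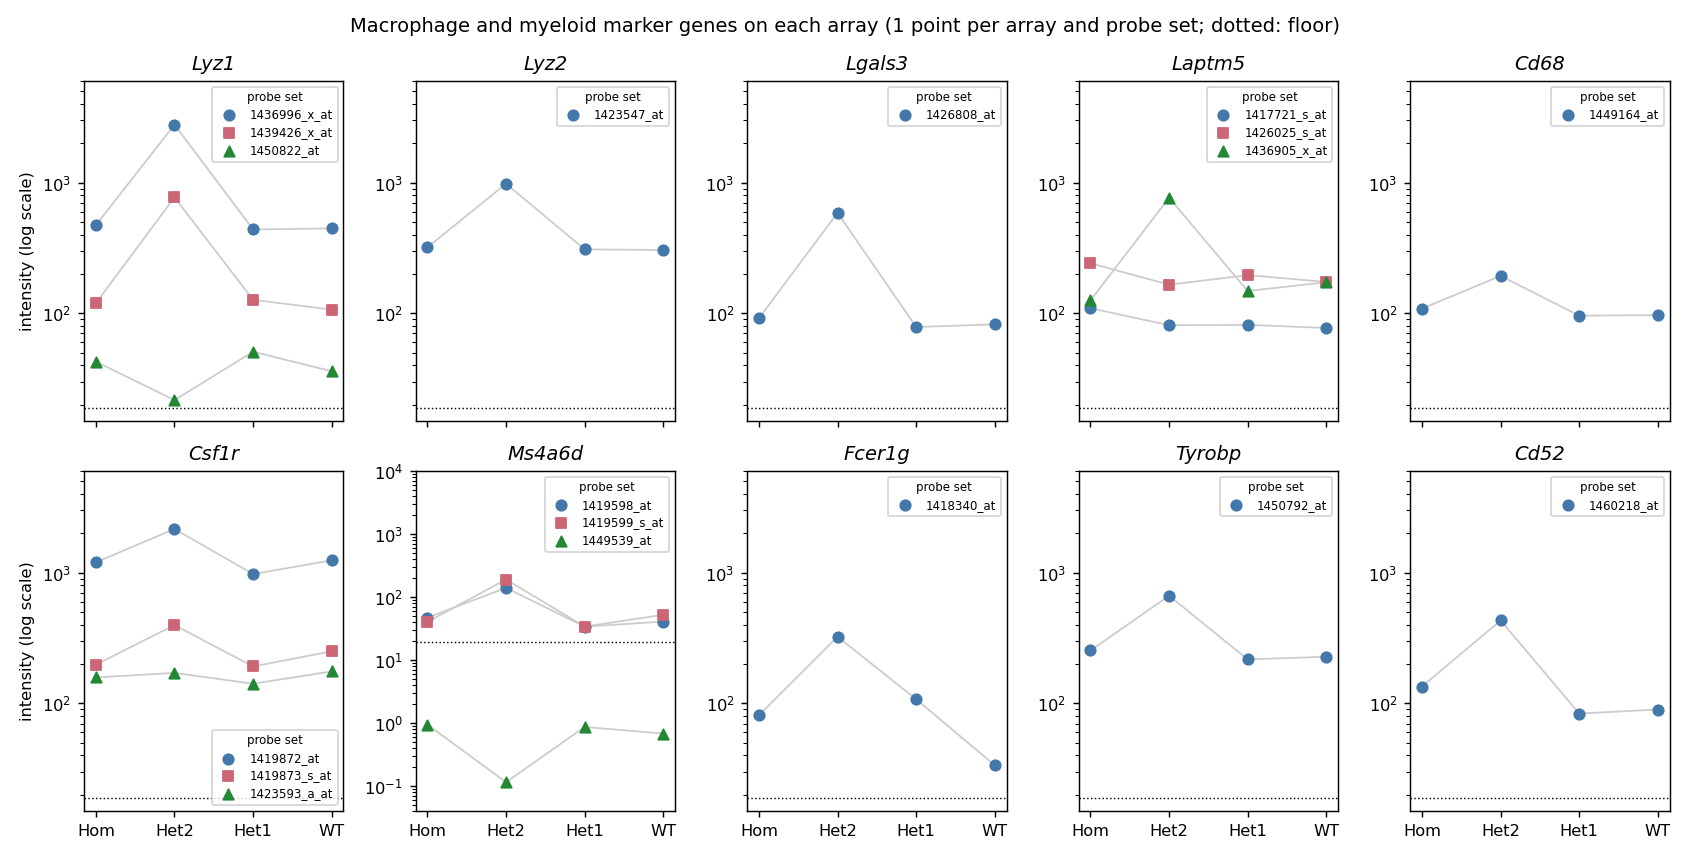
Intensity of every probe set of the 10 genes (log axis, scale of Ms4a6d extended downwards) on the Hom, Het2, Het1 and WT arrays, 1 point per array, with the floor dotted and grey lines joining the readings of 1 probe set. Het2 is highest on 13 of the 18 probe sets, the others being Lyz1 1450822_at, Laptm5 1417721_s_at and 1426025_s_at, Csf1r 1423593_a_at and Ms4a6d 1449539_at, and Fcer1g is lowest in WT.

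Of the 18 probe sets, 16 passed the filter on a mean intensity of at least 62.5 over the 4 arrays. Only 14 would have reached that mean without Het2, since both Ms4a6d probe sets passed through their reading there. On 13 of the 16, Het2 was the highest array, as it was for 49.9% of all probe sets that passed. It was at least 2-fold above each of the other arrays on 10, against 2.69% of all. Higher readings by 2-fold or more were seen on 11 probe sets against Hom (6.54% of all), on 13 against Het1 (8.21%) and on 10 against WT (5.68%). These counts describe the choice of the genes and are no finding. The choice stated no threshold. Nearest above 2-fold over Het1 were Cd68 at 2.01 and Csf1r 1419873_s_at at 2.08, and nearest below it was Csf1r 1423593_a_at at 1.21.

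The difference between Hom and WT holds no Het2 reading, although Het2 entered the choice of the genes and the filter on their probe sets. Of the 16 probe sets 1, that of Fcer1g, was at least 2-fold apart between Hom and WT, against 1.22% of all probe sets. Of the remaining 15, the furthest apart were Cd52 (log2 difference 0.58, Hom over WT), Laptm5 1417721_s_at (0.50) and 1426025_s_at (0.48) on the higher side and Laptm5 1436905_x_at (-0.46) and Ms4a6d 1419599_s_at (-0.37) on the lower. Readings were higher in Hom on 11 of 16 (45.7% of all), and the median difference was 0.16, against -0.03 over all probe sets. Among the 14 probe sets that pass without Het2, 10 were higher and the median was 0.16. At 1 probe set a gene, 7 of the 10 genes were higher in Hom (46.8% of all genes). The probe set kept had the highest mean over all 4 arrays, so Het2 entered this choice. For Laptm5 it kept 1436905_x_at, with a mean of 302.9 with Het2 and 148.7 without. The corresponding means of 1426025_s_at, which was higher in Hom, were 194.1 and 203.6.

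Over all 11315 probe sets, limma's test of Hom against WT called 0 (0%) at an adjusted p of 0.05, and 56 (0.495%) passed an unadjusted 0.05. Its spread came from the Het pair alone, with 1 residual degree of freedom. The members were chosen for high readings in 1 array of that pair, so their standard errors use the values that chose them, and no p-value is given for a member. The Fcer1g difference of 1.28 on the log2 scale therefore has no test and no replicate of either array.

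Het1 set against WT, a description of 1 array each, uses the same WT array as the comparison above. Again 1 of 16 probe sets, that of Fcer1g, was 2-fold apart (log2 difference 1.68), against 2.06% of all. The others ran from -0.62 for Ms4a6d 1419599_s_at to 0.25 for Lyz1 1439426_x_at. Higher readings in Het1 were found on 5 of 16 (49.5% of all), and the median was -0.07, against -0.0038 over all probe sets. The 14 probe sets that pass without Het2 gave 5 higher and a median of -0.05. At 1 probe set a gene, 2 of 10 genes were higher in Het1 (49.7% of all genes). That choice of probe set used Het2, and kept Laptm5 1436905_x_at (-0.22) where 1426025_s_at gave 0.17. Fcer1g ranked 15th of 11315 for this difference and 29th for Hom minus WT.

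Hom set against Het1, which leaves out both WT and Het2, had 0 of 16 probe sets 2-fold apart (1.77% of all). Readings were higher in Hom on 13 of 16 (47.1% of all), led by Cd52 with a log2 difference of 0.69. Among the 14 that pass without Het2, 11 were higher in Hom and the median was 0.17. Those lower in Hom were Fcer1g (-0.40), Laptm5 1436905_x_at (-0.24) and Lyz1 1439426_x_at (-0.09). The median was 0.20, against -0.02 over all probe sets. By gene, 8 of 10 were higher in Hom (47.7% of all genes). Laptm5 was counted there by 1436905_x_at, kept for its mean with Het2, while 1426025_s_at gave 0.30. The probe sets of 1 gene share their target and are not independent readings.

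Across Hom, Het1 and WT, 13 of the 16 probe sets stayed within 1.5-fold, near the 80.4% of all probe sets that did. Exceptions were Fcer1g at 3.20-fold, Cd52 at 1.61-fold and Ms4a6d 1419599_s_at at 1.53-fold between the highest and the lowest of the 3. WT was lowest of these 3 arrays on 5 probe sets (30.7% of all) and Hom highest on 9 (27.9% of all).

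**Figure D2:**
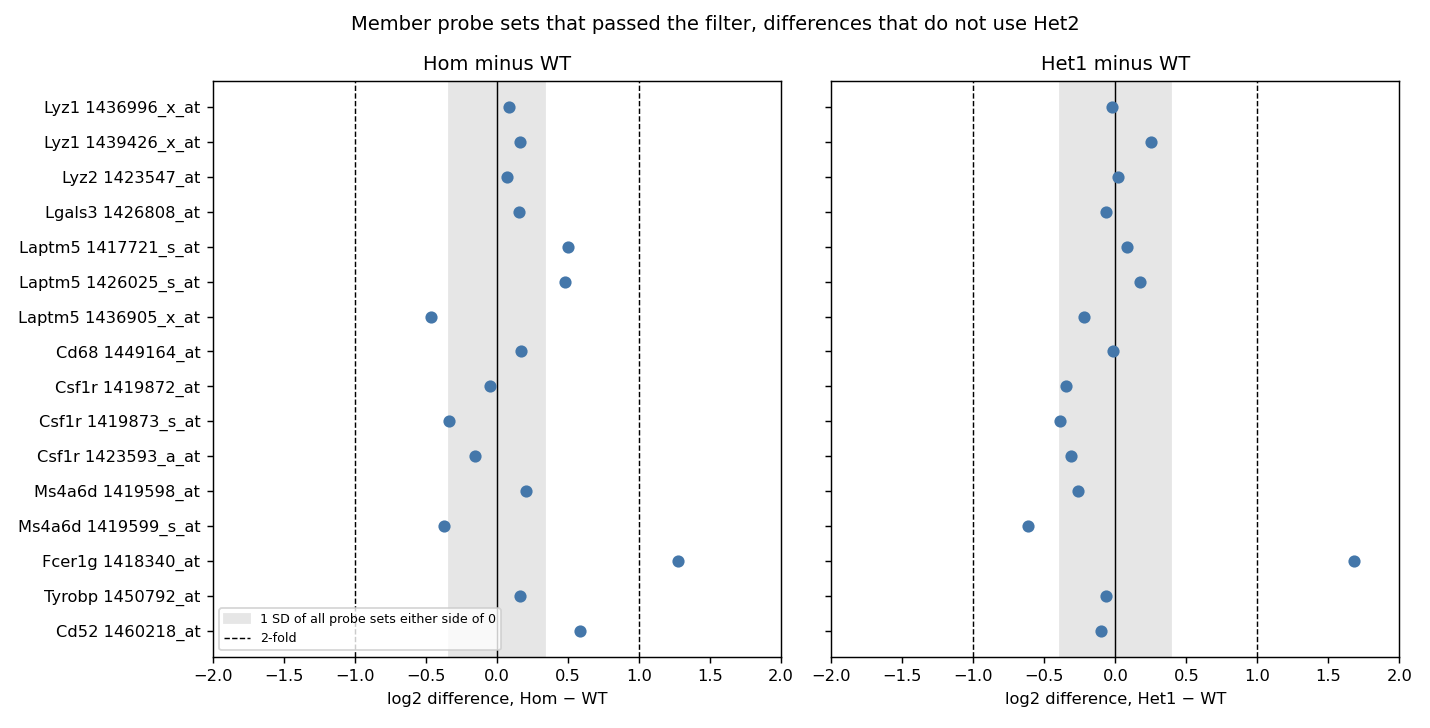
Log2 differences Hom minus WT and Het1 minus WT for the 16 member probe sets that passed the filter, 1 point each, with grey bands of 1 SD over all probe sets (0.34 and 0.39) and dashed lines at 2-fold. Fcer1g is the only point beyond 2-fold in either panel, and both panels subtract the same WT array.

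Fcer1g is also expressed by mast cells and platelets, so their markers were read beside it. Among mast cell genes, Cpa3, a granule carboxypeptidase, gave 170.3 in Hom, 245.8 in Het2, 104.6 in Het1 and 166.1 in WT. The receptor Kit gave 151.7 in Hom, 96.2 in Het2, 110.1 in Het1 and 167.8 in WT. WT lay between Hom and Het1 for Cpa3 and was the highest array for Kit. Of those that failed the filter, Fcer1a was lowest in WT, at 20.8 in Hom, 20.7 in Het2, 30.2 in Het1 and 14.7 in WT. Ms4a2 was highest in Het2, at 11.6 in Hom, 50.5 in Het2, 10.5 in Het1 and 25.3 in WT. Mcpt4 was too, at 5.6 in Hom, 59.0 in Het2, 5.7 in Het1 and 22.8 in WT. The 10 mast cell genes summed to 926 in Hom, 1131 in Het2, 955 in Het1 and 1101 in WT, with 4 passing the filter, and Hdc lay below the floor on every array. Gata2, the brightest, made up much of that sum, at 371.7 in Hom, 389.2 in Het2, 483.1 in Het1 and 467.5 in WT. Platelet genes moved differently. Ppbp, a chemokine precursor of platelet granules, gave 82.6 in Hom, 1025 in Het2, 534.7 in Het1 and 71.4 in WT. Gp1bb, a subunit of the von Willebrand factor receptor, gave 77.2 in Hom, 282.9 in Het2, 120.6 in Het1 and 57.0 in WT. The 8 platelet genes on the array summed to 1244 in Hom, 4439 in Het2, 2472 in Het1 and 1428 in WT. Of those that passed the filter, 7 of 7 were higher in Het1 than in WT (49.7% of all genes). In Hom 4 of 7 were higher than in WT, near the 46.8% of all genes. Itgb3 lay below the floor on every array. Gp9 passed the filter only through its reading in Het2 and was near level between Het1 (40.1) and WT (38.3). The part of mast cell or platelet RNA in the Fcer1g readings was not tested.

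Other markers of macrophages and monocytes were taken as a list of 26 genes, of which 24 were on the array and 16 passed the filter. Clec4n, the C-type lectin Dectin-2 that pairs with Fcer1g, read 205.0 in Hom, 502.5 in Het2, 158.6 in Het1 and 170.1 in WT. Mrc1, the mannose receptor, read 268.2 in Hom, 452.3 in Het2, 204.7 in Het1 and 306.2 in WT. Adgre1, which encodes the macrophage antigen F4/80, read 310.6 in Hom, 285.2 in Het2, 391.0 in Het1 and 312.8 in WT, and was therefore lowest in Het2. The list was split in this way. Het2 was at least 2-fold above Het1 for 6 of 16, against 7.31% of all genes, namely Clec4n, the integrin chain Itgb2, the perforin-like Mpeg1, the lipopolysaccharide co-receptor Cd14, the complement chain C1qc and Mrc1. It was below Het1 for Adgre1 (log2 difference -0.46), the fractalkine receptor Cx3cr1 (-0.24) and the inhibitory Fc receptor Fcgr2b (-0.12). Het2 was the highest array for 12 of 16 (51.5% of all genes). The filter mean includes Het2, and the Fc receptor Fcgr1 passed only through its reading there.

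The median of that list for Het2 minus Het1 was 0.75, against 2.02 for the 10 member genes, which were picked on Het2, and 0.20 over all genes. The summed level of its 24 genes was 3307 in Hom, 5031 in Het2, 2996 in Het1 and 3527 in WT, while the 10 members summed to 2829 in Hom, 9082 in Het2, 2488 in Het1 and 2749 in WT. The median for Hom minus WT was -0.01, with 6 of 16 higher in Hom (46.8% of all genes). That for Het1 minus WT was -0.21, with 5 of 16 higher (49.7% of all genes). The furthest below WT in Hom was Mertk, a receptor for the uptake of dying cells (log2 difference -0.63), and in Het1 the complement chain C1qa (-0.61). None was 2-fold apart in either.

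The pathway list held 20 further genes around Csf1r and the adaptors, of which 18 were on the array and 10 passed the filter. Csf1, the ligand of Csf1r, read 186.7 in Hom, 194.3 in Het2, 154.6 in Het1 and 163.5 in WT. Clec7a, the beta-glucan receptor Dectin-1, read 115.8 in Hom, 283.1 in Het2, 56.6 in Het1 and 69.8 in WT. It was the 1 gene of the list at least 2-fold higher in Het2 than in Het1. Inpp5d, the phosphatase SHIP1 that opposes this signalling, read 192.7 in Hom, 140.1 in Het2, 168.3 in Het1 and 156.4 in WT, and was lowest in Het2. Spi1, which encodes PU.1, did not pass the filter.

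In Hom, 9 of the 10 pathway genes read above WT (46.8% of all genes), with a median log2 difference of 0.23 against -0.02 over all genes. The highest were Clec7a (0.73), the Fc receptor Fcgr4 (0.53) and the DAP10 adaptor Hcst (0.31), and the exception was the kinase Fgr (-0.15). In Het1, 4 of 10 were above WT (49.7% of all genes) and the median was -0.08. None of these 10 was 2-fold apart between Hom and WT. The pathway genes that failed the filter were mostly not higher in Hom. Btk read 14.6 in Hom, below the floor, and 60.0 in WT. Il34 (-0.50), Spi1 (-0.44) and Syk (-0.04) were lower in Hom, and Clec5a (0.12) and Trem1 (0.09) higher. The other 2 lay below the floor on every array.

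Of 18 pan-leukocyte genes on the array 11 passed the filter, and all 11 read highest in Het2, against 51.5% of all genes. The filter mean includes Het2, so this count is partly favoured by the filter. Cd37 passed only through its reading there, at 80.1 in Hom, 85.2 in Het2, 52.2 in Het1 and 50.2 in WT. Coro1a, an actin regulator of blood cells, read 147.6 in Hom, 315.7 in Het2, 81.7 in Het1 and 99.7 in WT. Cd53, a tetraspanin, read 73.2 in Hom, 235.4 in Het2, 70.8 in Het1 and 80.0 in WT. Cd44, the hyaluronan receptor, which stromal cells also express, read 413.8 in Hom, 878.5 in Het2, 501.2 in Het1 and 255.4 in WT, and like Fcer1g was lowest in WT. Selplg, a selectin ligand, was lowest in WT too, at 86.7 in Hom, 140.1 in Het2, 69.2 in Het1 and 43.7 in WT. The median of the 11 was 0.81 for Het2 minus Het1, 0.03 for Hom minus WT and -0.10 for Het1 minus WT. The genes that failed the filter were mixed. Cd48 was highest in Het2 (54.3), Itgal in Hom (60.5, against 60.0 in Het2) and Dock2 in WT (44.8). Was read lowest in Het2 (35.7), and Vav1, Hcls1 and Ikzf1 lay below the floor on every array.

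Of 18 lysosomal and phagocyte oxidase genes that passed the filter, 16 were highest in Het2 (51.5% of all genes). Among them Ncf4 passed only through its reading in Het2. Their median for Het2 minus Het1 was 0.57, and 0.30 after quantile normalization and 0.31 with the scaling as deposited. Ctsc, a lysosomal protease, read 435.6 in Hom, 1249 in Het2, 427.8 in Het1 and 474.0 in WT. Cyba, a subunit of the phagocyte oxidase, read 254.0 in Hom, 626.8 in Het2, 242.6 in Het1 and 254.8 in WT. Both were near level on the other arrays, as most member genes were. Ncf4, another oxidase subunit, was dim and lowest in WT, at 68.9 in Hom, 94.4 in Het2, 61.6 in Het1 and 39.0 in WT. The list median for Hom minus WT was -0.09.

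Markers of other blood cells that could carry the same genes were mostly dim. Of 15 neutrophil genes on the array 1 passed the filter, Ngp, a granule protein, at 79.0 in Hom, 67.2 in Het2, 78.3 in Het1 and 88.5 in WT, and 6 lay below the floor on every array. Among those that failed it, Csf3r read 61.8 in Hom, 62.5 in Het2, 47.0 in Het1 and 11.1 in WT, below the floor. Ltf was lowest in WT too, at 64.9 in Hom, 59.7 in Het2, 81.7 in Het1 and 39.5 in WT. Mmp9 was highest in WT instead, at 36.1. Of 18 lymphocyte genes 3 passed and 4 lay below the floor on every array. Zap70, a T cell kinase, read 252.1 in Hom, 253.1 in Het2, 224.2 in Het1 and 240.9 in WT. Of 8 dendritic cell genes on the array only Irf8, a factor that macrophages share, passed the filter, at 72.2 in Hom, 81.5 in Het2, 72.0 in Het1 and 75.3 in WT. S100a8, a neutrophil calcium-binding protein, did not pass the filter but read 15.6 in Hom, 55.8 in Het2, 17.4 in Het1 and 15.8 in WT, above the floor in Het2 alone. S100a9, of the same list, also failed it and was level between the Het arrays. It read 7.7 in Hom, 46.8 in Het2, 46.8 in Het1 and 21.1 in WT. Il7r, a lymphocyte cytokine receptor, did not pass either and read 41.4 in Hom, 32.9 in Het2, 13.8 in Het1 and 23.5 in WT. S100a8, S100a9 and Il7r were named after their values were seen. Of 6 erythroid genes on the array 2 passed the filter, Alas2 and Slc4a1, and both were highest in Het2. Alas2, the first enzyme of haem synthesis, read 1176 in Hom, 2578 in Het2, 918 in Het1 and 1032 in WT. Of those that failed, Hba-a1 (log2 difference -0.30), Klf1 (-0.31) and Hemgn (-0.80) were lower in Het2 than in Het1. Epb42 lay below the floor on every array.

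Cardiomyocyte markers moved the opposite way in Het2. All 20 passed the filter, and 15 were at least 2-fold lower in Het2 than in Het1 (2.33% of all genes), with a median log2 difference of -1.26. The list summed to 52376 in Hom, 29521 in Het2, 67191 in Het1 and 53904 in WT. The atrial light chain Myl7 was the exception that was 2-fold higher, at 1271 in Hom, 3040 in Het2, 1306 in Het1 and 1621 in WT. The median for 16 interstitial and fibroblast markers was -0.08, and -0.20 after quantile normalization and -0.33 with the scaling as deposited. That for 13 endothelial markers was -0.31, and -0.67 and -0.57 under those scalings. S100a4, a calcium-binding protein counted among the fibroblast markers but also made by macrophages, stood out at 322.9 in Hom, 2093 in Het2, 544.2 in Het1 and 348.1 in WT. The part of tissue make-up, RNA quality or platelets in the readings of Het2 was not tested.

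**Figure D3:**
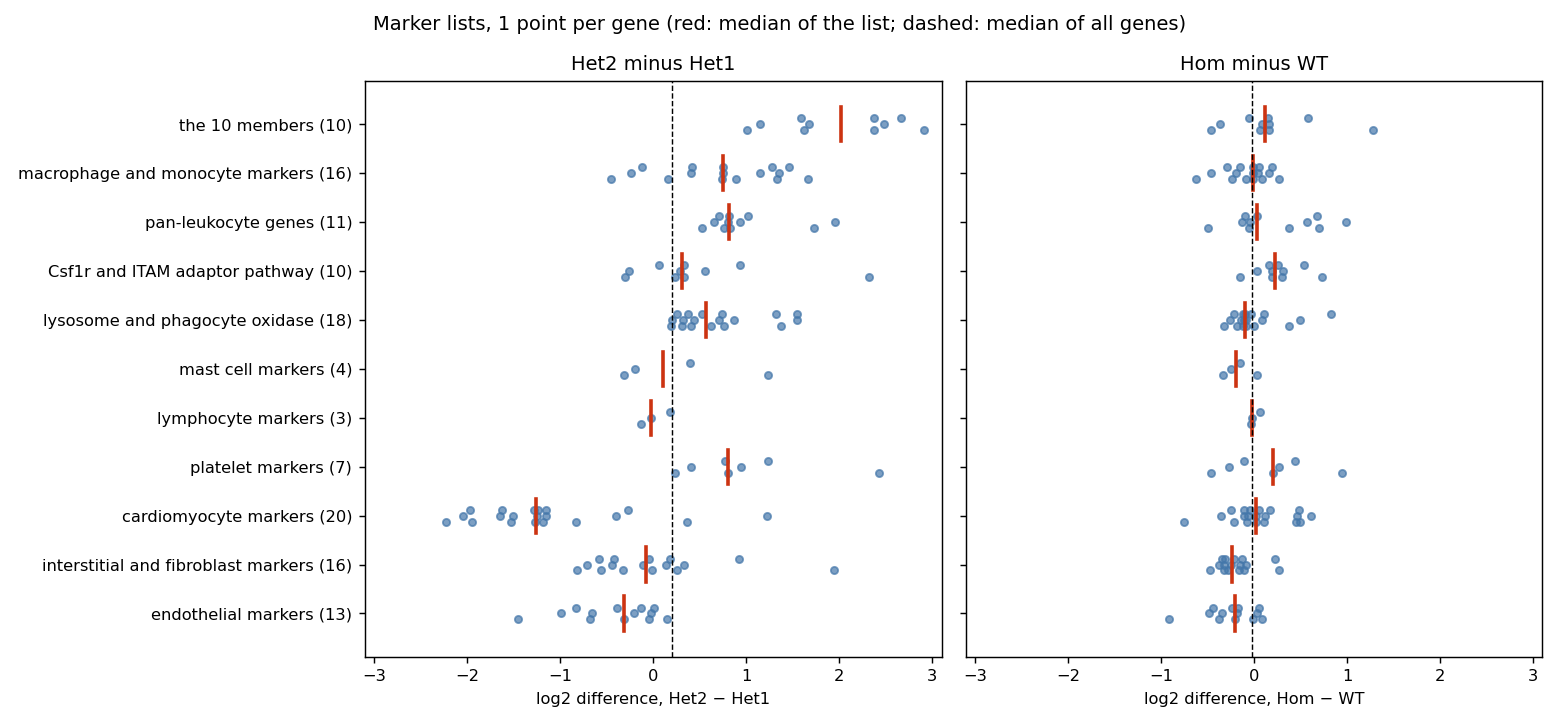
Log2 differences of single genes that passed the filter in each marker list (number of genes in brackets), Het2 minus Het1 on the left and Hom minus WT on the right, with the list median in red and the median of all genes dashed. On the left the members, picked on Het2, lie furthest to the right (median 2.02) and the cardiomyocyte markers to the left (-1.26), while on the right every list median lies between -0.23 and 0.23.

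Probe set type moved with the readings of Het2. Among all probe sets tested, 20.27% of 957 with names ending in _x_at were at least 2-fold higher in Het2 than in Het1, against 9.989% of 881 ending in _s_at, 9.513% of 2281 ending in _a_at and 5.976% of 7196 ending in plain _at. Their median log2 differences were 0.50, 0.31, 0.21 and 0.13. In 498 genes read by an _x_at and by another probe set, the log2 difference Het2 minus Het1 was larger on _x_at by a median of 0.32. Among the members that passed the filter, 3 of 3 _x_at probe sets were at least 2-fold higher, as were 2 of 4 _s_at, 0 of 1 _a_at and 8 of 8 plain _at. Both Ms4a6d probe sets counted here passed only through Het2. Not counted were 2 plain _at probe sets that failed the filter. Of these Lyz1 1450822_at was 2.35-fold lower in Het2 than in Het1, and Ms4a6d 1449539_at lay below the floor. Readings at least 2-fold above Het1 thus came from a plain _at probe set for Lyz2, Lgals3, Cd68, Csf1r, Ms4a6d, Fcer1g, Tyrobp and Cd52, and from _x_at alone for Lyz1 and Laptm5. Cd68 fell below 2-fold at log2 differences of 0.84 after quantile normalization and 0.75 with the scaling as deposited. So did Csf1r 1419872_at at 0.82 and 0.89 and 1419873_s_at at 0.77 and 0.80. Whether binding to other transcripts raised the Lyz1 and Laptm5 readings was not tested.

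**Figure D4:**
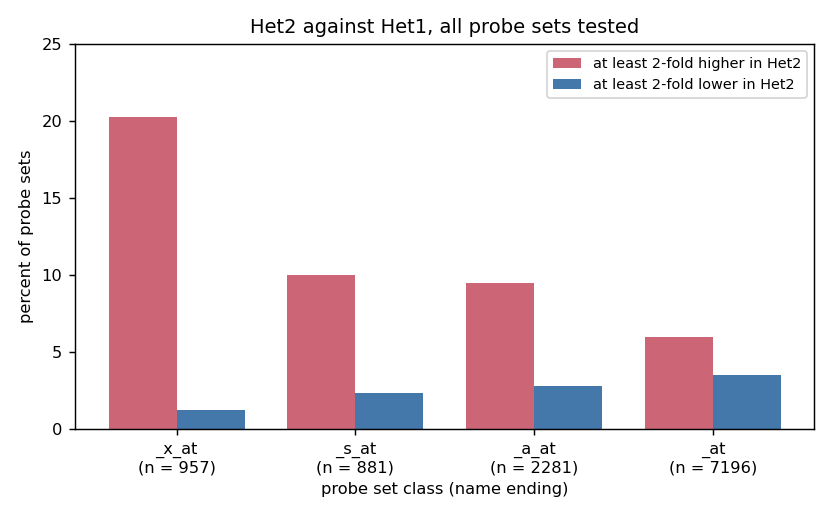
Percent of all tested probe sets of each name ending that were at least 2-fold higher (red) or lower (blue) in Het2 than in Het1, with the number of probe sets under each pair of bars. The _x_at bar for higher readings stands at 20.27%, above the 5.976% of plain _at.

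The profile of the members over the 4 arrays, each gene centred on its own mean, was matched against 7299 other genes by root-mean-square distance in log2 units, as a description over 4 points. Its mean was -0.39 in Hom, 1.46 in Het2, -0.52 in Het1 and -0.55 in WT, mostly the Het2 reading by which members were picked. The nearest genes are therefore those that read high in Het2 as well, and are no finding about the members. The nearest was Ndfip1, an adaptor of Nedd4-family ubiquitin ligases, at a distance of 0.05, with 467.7 in Hom, 1688 in Het2, 446.0 in Het1 and 458.5 in WT. After it came the red cell anion exchanger Slc4a1 (0.06, read by an _x_at probe set), the exonuclease Isg20 (0.08) and Alox5ap, the 5-lipoxygenase activating protein (0.09). Alox5ap, a gene of leukotriene synthesis in myeloid cells, read 217.6 in Hom, 745.3 in Het2, 166.6 in Het1 and 180.7 in WT. Lst1 and Ly86 (both 0.10), the phosphatase Ptpn2 (0.12) and Prxl2a (0.13) completed the 8 nearest. The median distance over all genes was 0.78, and the members themselves lay 0.13 to 0.62 from their mean profile.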

How the data were processed

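Total RNA from mouse mitral valve was measured on 4 single-colour arrays (Hom 1, Het 2, WT 1, grouped by the labels' descriptions and titles). The values deposited by the authors were linear intensities, with 22690 probe sets an array, made by software not given in the sources used here. Every deposited array had a 2% trimmed mean of 150.0, while the medians were 65.5 in Hom, 54 in Het2, 64.5 in Het1 and 63.7 in WT.

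All arrays were centred on a shared median of 61.7, which shifted log2 values by -0.09 in Hom, 0.19 in Het2, -0.06 in Het1 and -0.05 in WT. Values were floored at the 25th percentile and log2 transformed. The floor understates the differences of dim probe sets. The filter kept probe sets with a mean at or above the median of the means, which left 11315. That mean includes Het2, so a gene can pass through a high reading there. Gene names came from the platform annotation: 20380 had 1 gene, 691 several and 1555 none, 20351 matched a RefSeq identifier, and 64 controls were left out. For lists, each gene took the probe set of highest mean (7309 genes).

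Hom was tested against WT with limma 3.58.1 (lmFit, eBayes, Benjamini-Hochberg over all probe sets tested, threshold 0.05) in R 4.3.3, in 1 fit of 3 groups. Other differences are between single arrays and have no test. The test was checked on simulated data with known changes. With 1 residual degree of freedom, the absence of calls does not show that Hom and WT had equal levels.

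The members, lists and tests were chosen with earlier results of these data known. The rule for named genes took every member and all its probe sets. From each list it took the 3 highest and 3 lowest differences for Het2 minus Het1, Hom minus WT and Het1 minus WT, genes 2-fold apart and all genes of lists under 12, of which the text names part. It added the 8 genes of nearest profile and the probe sets next to 2-fold. Csf1, Spi1, S100a8 and Il7r were named outside it, after their values were seen. Fcgr1 and, of genes that failed the filter, Csf3r, Ltf, Mmp9, Btk, Il34, Syk, Clec5a and Trem1 were also named after their values were seen. So were S100a9, Was, Itgal, Dock2, Cd48, Vav1, Hcls1 and Ikzf1, which failed it too. Alternatives were other scalings, floors, filters, fits, probe set choices and fold limits, and leaving out each Het array. Plots used matplotlib 3.10.9 under Python 3.11.15.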

Additional observations from a re-analysis of the deposited data

How the results depend on the processing

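With no paired numbers to use, the fit was run without a block. No paired analysis was possible because only the Het group has more than 1 array, so the groups compared share fewer than 2 replicate numbers. The count of member probe sets 2-fold apart was 1 for Hom against WT and 1 for Het1 against WT. Both became 0 with the filter at the 75th percentile, which removes Fcer1g and leaves 10 member probe sets. With a limit of 1.5-fold they became 2 and 2 (7.59% and 11.1% of all probe sets), and the count for Hom against Het1 was 1 (10.2% of all). Csf1r 1419872_at changed sign for Hom minus WT, at 0.045 after quantile normalization. It was the 1 reversal among 99 values of member probe sets under alternatives, and the cause was not tested. With either Het array left out, and filter and centring redone, the Hom against WT count stayed at 1 and its median at 0.16. Without Het2 the median for Het1 minus WT was -0.05 and that for Hom minus Het1 was 0.17. Leaving out a Het array leaves no residual degree of freedom, so the limma test could not be run. It called 0 probe sets in every setting run, where 10 to 1784 passed an unadjusted 0.05. The median over member probe sets for Het2 minus Het1 was 1.35 after quantile normalization and 1.36 with the scaling as deposited, against 1.64 after centring, while over all probe sets it was -0.0083 and -0.08, against 0.18. Member probe sets at least 2-fold apart there numbered 10 and 9, against 13. For Hom minus WT, quantile normalization moved the median of interstitial markers to -0.06, against -0.23, and that of cardiomyocyte markers to 0.20, against 0.02. The pathway median was 0.24 and 0.27 in those scalings. For Het2 minus Het1, the pathway median became 0.053 as deposited.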
